A study of Rattus norvegicus with 36 samples.

Results

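Tgfb1, Smad2, Smad3 and Smad7 were followed in precision-cut slices of rat lung, which are thin sections of living tissue held in culture. These 4 genes were chosen by name and by their 4 Ensembl gene identifiers (ENSRNOG00000020652 for Tgfb1, ENSRNOG00000018140 for Smad2, ENSRNOG00000008620 for Smad3 and ENSRNOG00000018359 for Smad7), out of 32883 genes in the deposited count table. All 4 passed the filter on low counts, which left 15644 genes for testing. The 36 RNA-seq libraries form 6 groups of 6. Untreated slices were taken at the labelled times 0 and 72. The other 4 groups, all at 72, had TGFb alone or TGFb together with 1 drug, labelled Pirf, Nint or Sora, so every drug group also carries TGFb. These labels are read here, knowing the study, as pirfenidone, nintedanib and sorafenib; its stated purpose was to characterize the slice model for testing anti-fibrotic drugs. The sources used here do not give the time unit, the doses, or the strain, sex and age of the rats. Nor do they say whether replicates are separate animals, and the p-values therefore speak only of the spread among these libraries, which may be technical.

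TGFb signalling starts with a secreted ligand, of which Tgfb1 is the best known in lung fibrosis. The ligand brings together type I and type II receptor kinases, and the type I receptor phosphorylates Smad2 and Smad3. These carriers then join Smad4 and enter the nucleus, where Smad3 binds DNA directly and the common form of Smad2 does so poorly. Smad7 occupies the activated type I receptor, recruits ubiquitin ligases to it and is itself transcribed in response to the pathway, so it acts as a feedback inhibitor. Signal strength is set largely by phosphorylation and protein turnover, neither of which RNA levels show.

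The sequences just before the starts of Smad3 and Smad7 are shown because these genes varied together between libraries, as described further on. The capitals mark AGAC, or GTCT where it lies on the other strand, the letters known as the Smad box. Both are from RefSeq on build GRCr8, 5′ to 3′ on the gene's strand, 250 bases ending at the base before the start: chr8:73132325-73132574 on the minus strand for Smad3 and chr18:71263258-71263507 on the plus strand for Smad7.
Smad3: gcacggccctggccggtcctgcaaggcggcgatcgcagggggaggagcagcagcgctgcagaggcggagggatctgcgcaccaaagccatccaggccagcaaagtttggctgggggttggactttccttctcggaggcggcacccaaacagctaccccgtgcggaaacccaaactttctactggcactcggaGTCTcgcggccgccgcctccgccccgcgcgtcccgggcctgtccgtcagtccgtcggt
Smad7: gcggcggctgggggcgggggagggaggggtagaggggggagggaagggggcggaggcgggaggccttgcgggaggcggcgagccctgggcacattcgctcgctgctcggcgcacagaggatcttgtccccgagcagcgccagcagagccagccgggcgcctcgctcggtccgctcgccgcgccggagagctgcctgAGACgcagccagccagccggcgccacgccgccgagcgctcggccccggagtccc
Each window held the Smad box once, first base 58 before the start in Smad3 and 54 before it in Smad7. The same window of 84.0% of 33469 promoter entries held it at least once. The palindrome GTCTAGAC, which holds 2 adjacent copies of that box on opposite strands, was in neither window and in 0.173% of entries. The GC box GGGCGG, searched on both strands, occurred once before Smad3 and at 2 places before Smad7, and 30.5% of entries held it. The AP-1 site TGAGTCA, also searched on both strands, was in neither window and in 4.05% of entries. These matches describe the letters only. The Smad7 window was 78.0% G or C, more than in 98.2% of entries, and the Smad3 window 68.4%.

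Values below are normalized counts, that is expected counts scaled by library size and TMM factor (trimmed mean of M values) to the mean library, and they are compared between groups of one gene, never between genes. Log2 fold changes, their standard errors (SE), 95% intervals and adjusted p-values come from edgeR's quasi-likelihood test over all 36 libraries, with Benjamini-Hochberg adjustment over 15644 genes, and genes with an adjusted p under 0.05 were called. Library totals lay between 15886958 and 32933012 expected counts, and the 4 genes had between 433 and 3559 counts in every library. The coefficient of variation between libraries of a group exceeded that of counting alone for Tgfb1, Smad3 and Smad7 in every group. For Smad2 it ran from 2.28% to 6.87%, against 2.49% to 3.26% for counting alone, and at time 0 it was the smaller of the pair. Slices are bulk tissue, in which fewer cells of a type and less RNA per cell cannot be told apart.

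**Figure D1:**
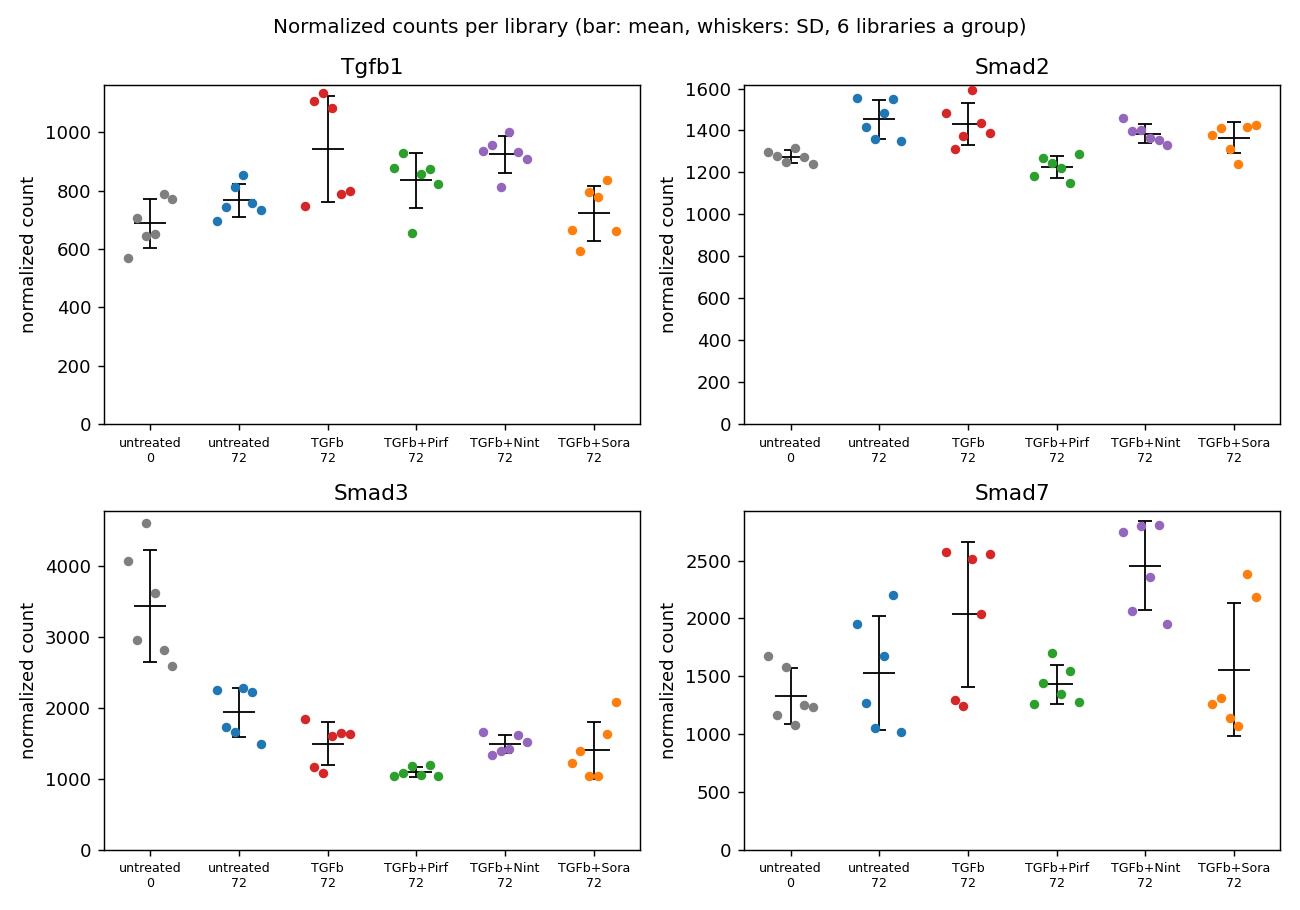
Normalized counts of Tgfb1, Smad2, Smad3 and Smad7 (vertical axes, from 0) in each of 36 libraries, by group (horizontal axis). Points are libraries, bars are means and whiskers are SD over 6 libraries. Smad3 at time 0 lies above every other group, Smad2 is tightly spread, and Smad7 with TGFb alone splits into 4 high and 2 low libraries.

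Untreated slices at 72 were compared with untreated slices at 0 to show what culture alone did to these genes. Smad3, the DNA-binding carrier, fell. At time 0 its 6 libraries ran from 2589 to 4605 normalized counts with a median of 3288, and at 72 from 1486 to 2279 with a median of 1979. Every library at 72 lay below every library at 0, a 1.77-fold lower level (log2 fold change -0.83 with SE 0.15 and adjusted p = 1.43e-05). Smad2, the other carrier, rose from 1276 ± 29.1 to 1452 ± 91.6 (mean ± SD, n = 6), and its groups did not overlap either, with 1239 to 1317 at 0 and 1348 to 1554 at 72. The size was small, a log2 fold change of 0.19 (with SE 0.04 and adjusted p = 0.000349), or 13.8%. RefSeq lists 2 Smad2 pseudogenes. Sharing of reads with them was not tested, and Smad2 counts were whole to within 0.01 in every library. Tgfb1, the ligand, ran from 567.6 to 787 at 0 and from 698 to 855 at 72 (log2 fold change 0.16, 95% interval -0.05 to 0.37, adjusted p = 0.17). Smad7, the inhibitor, ran from 1077 to 1675 at 0 and from 1016 to 2203 at 72 (log2 fold change 0.20, interval -0.23 to 0.63, adjusted p = 0.397). The groups of both overlapped and neither passed the test, although Smad7 was called higher (log2 fold change 0.52, adjusted p = 0.000351) with the TMM factor as a covariate, a setting added after the data were seen. So 1 member rose, 1 fell and 2 did not pass, where 73.2% of all genes tested were called (38% higher and 35.3% lower) and 49.3% had groups of 6 that did not overlap. The Smad3 difference was larger in size than those of most genes, with 36.3% of genes exceeding it, and the Smad2 difference was smaller than those of 82.8%.

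The ratio of Smad3 to Smad2 counts within a library does not depend on the scaling factor. Its group mean on the log2 scale was 1.40 ± 0.32 (SD, n = 6) at time 0 and 0.40 ± 0.18 at 72, and the 2 groups did not overlap. Ratios of tested genes to Smad2 did not overlap between these groups in 48.2% of genes, and those to Smad3 in 50.2%. Ratios are given here as descriptions, with no test.

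Slices with TGFb were compared with untreated slices at 72 to ask what the added growth factor did to its own pathway's transcripts. Tgfb1 rose by a log2 fold change of 0.30 (with SE 0.10 and adjusted p = 0.0291), a level 23.0% higher. Its 6 libraries with TGFb fell into 2 sets, at 746, 788 and 799 in replicates 1, 5 and 6 and at 1082, 1109 and 1134 in replicates 4, 2 and 3, against 698 to 855 in untreated slices. The first set lay within the untreated range and the second above all of it. This call was lost under 4 of 8 other analysis settings (among them no scaling factors, with an adjusted p of 0.132) and without any one of 6 of the 12 libraries, namely TGFb-alone replicates 2, 3 or 4 or untreated replicates 1, 2 or 6 (adjusted p from 0.054 to 0.129).

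Smad7, the member known as a transcriptional target of the pathway, did not pass the test at this time. Its libraries with TGFb ran from 1245 to 2571 with a median of 2274, and those of untreated slices from 1016 to 2203 with a median of 1473. Replicates 1, 4 and 6 with TGFb, at 2571, 2513 and 2553, lay above all untreated libraries, whereas replicates 2, 3 and 5, at 1299, 1245 and 2036, lay within the untreated range. The log2 fold change was 0.41 (SE 0.21, interval -0.01 to 0.84, adjusted p = 0.15). With the TMM factor as a covariate it was 0.04 (adjusted p = 0.86). Smad3 had a log2 fold change of -0.37 (with SE 0.15, interval -0.69 to -0.06, adjusted p = 0.0705), with 1079 to 1847 normalized counts against 1486 to 2279. It was called under 3 of 8 other settings (adjusted p = 0.0175 without scaling factors, 0.00312 with the TMM factor as a covariate and 0.0495 with DESeq2) and without TGFb-alone replicate 1 or untreated replicate 3 or 6. Smad2 had a log2 fold change of -0.02 (interval -0.11 to 0.07, adjusted p = 0.776). Thus 1 of 4 members was called, as higher, where 26.4% of all genes were (14% higher and 12.4% lower). None of the 4 had groups without overlap, which 13.6% of all genes had.

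**Figure D2:**
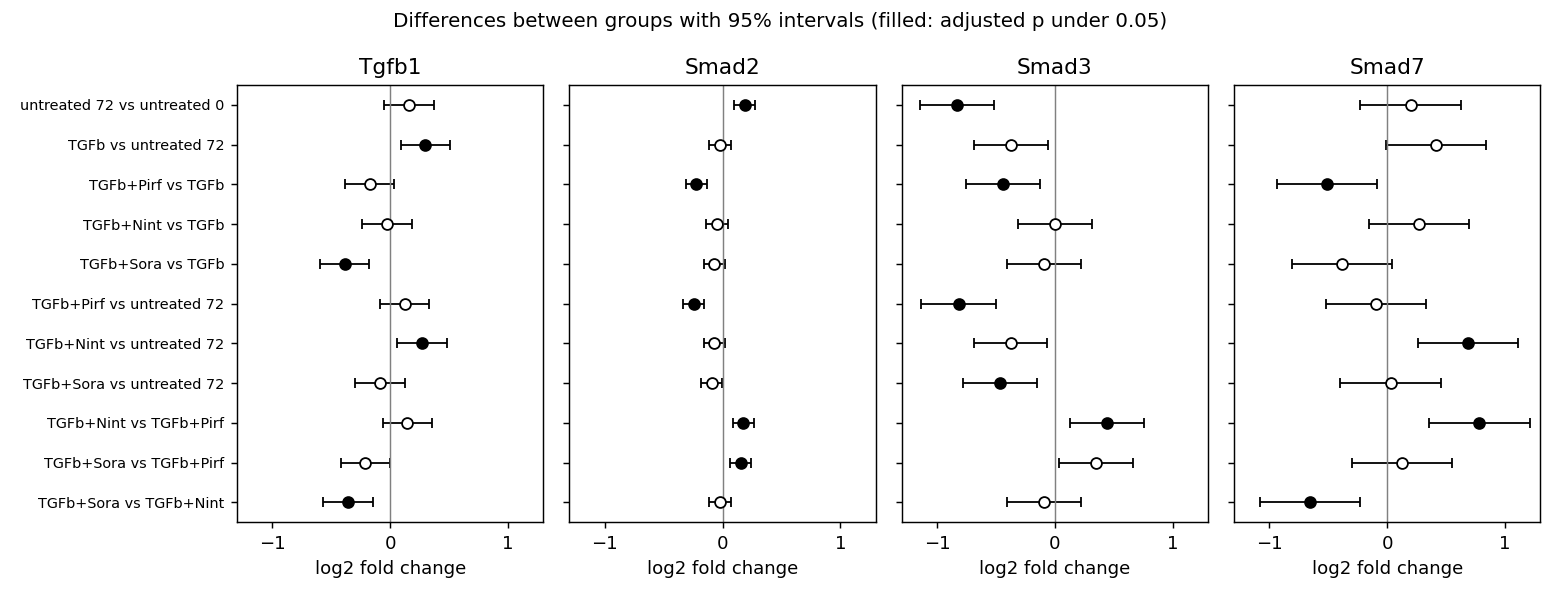
Log2 fold changes (horizontal axes) of the 4 genes in the 11 comparisons (rows, first group minus second), with 95% intervals. Filled points passed an adjusted p of 0.05. Intervals of Smad2 are the narrowest and those of Smad7 the widest, and 18 of the 44 points are filled. Of all genes tested, 3.09% to 73.2% were called, depending on the comparison.

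The log2 ratio of Smad7 to Smad3 counts within a library was -1.36 ± 0.25 (SD, n = 6) at time 0, -0.39 ± 0.24 in untreated slices at 72 and 0.40 ± 0.22 with TGFb. It ran from -1.75 to -1.07, from -0.66 to -0.01 and from 0.15 to 0.65 in these groups, so that no library of one group overlapped the next. The ratio was 1.73-fold higher with TGFb than in untreated slices and 1.96-fold higher at 72 than at 0. As background, the ratio of any tested gene to Smad3 separated TGFb from untreated slices in 12.7% of genes (11.6% higher with TGFb). It separated 72 from 0 in 50.2% (47% higher at 72). The ratio of Smad7 to Smad2 overlapped between TGFb (-0.14 to 0.88) and untreated slices (-0.41 to 0.51).

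**Figure D3:**
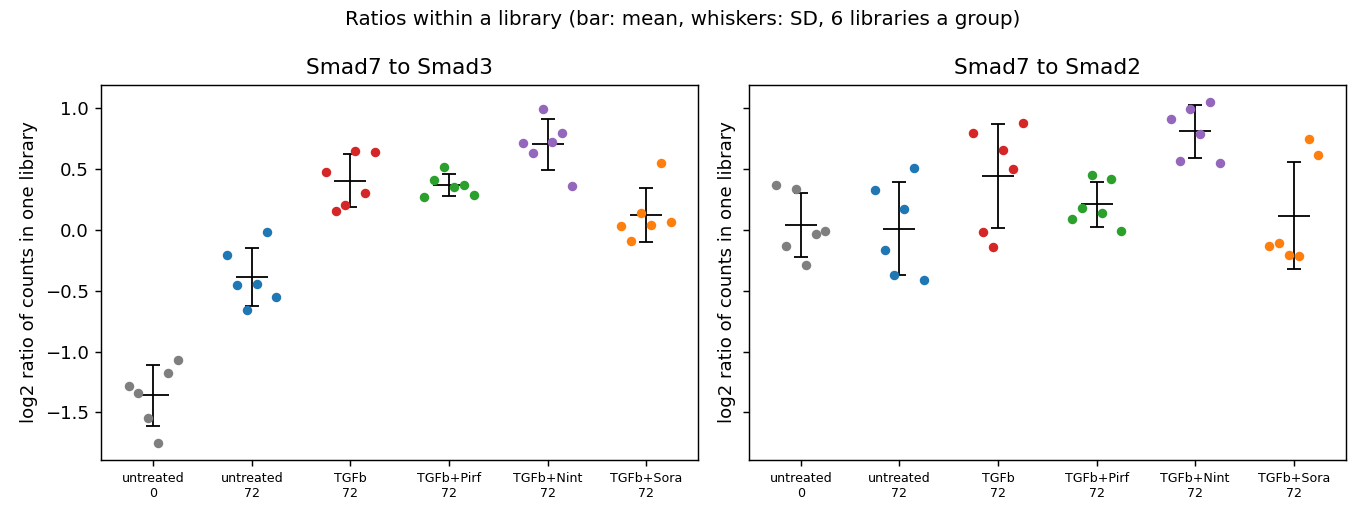
Log2 ratios of Smad7 to Smad3 and of Smad7 to Smad2 counts within each library (vertical axes) by group (horizontal axis). Points are libraries, bars are means and whiskers SD over 6 libraries. The Smad7 to Smad3 ratio steps up from untreated slices at 0 to untreated slices at 72 to TGFb without overlap, and the Smad7 to Smad2 ratio does not.

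Each drug group was compared with TGFb alone, so these comparisons share the same 6 TGFb-alone libraries, and likewise those against untreated slices share theirs. With Pirf, Smad2, Smad3 and Smad7 all fell. Smad2 fell from 1431 ± 98.3 to 1227 ± 52.6 normalized counts, with 1313 to 1595 against 1151 to 1289 and no overlap (log2 fold change -0.22 with SE 0.04 and adjusted p = 0.000107). Smad3 fell from a median of 1619 to a median of 1069 (log2 fold change -0.44 with SE 0.15 and adjusted p = 0.0169). Its 6 Pirf libraries lay close together, at 1039.85 to 1193, and TGFb-alone replicates 2 and 3, at 1167 and 1079, lay among them. Smad7 fell from 2036 ± 624.5 to 1429 ± 172 (log2 fold change -0.51 with SE 0.21 and adjusted p = 0.0412), with 1257 to 1705 with Pirf. The same TGFb-alone replicates 2 and 3 lay within or just below that range and the other 4 lay above it. Tgfb1 had 655 to 929 normalized counts with Pirf (log2 fold change -0.17, interval -0.38 to 0.03, adjusted p = 0.156). So 3 members fell, where 51.5% of all genes were called (25.1% higher and 26.4% lower) and 29.7% had groups that did not overlap.

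These 3 calls depended on the scaling. TMM factors of the 6 Pirf libraries (1.06 to 1.08) lay above all those with TGFb alone (0.894 to 1.02), so the factor and the drug cannot be told apart, and leaving the factors out shifted the median over all genes by 0.153 (log2). Without factors the Smad2, Smad3 and Smad7 changes were -0.07, -0.28 and -0.34 (adjusted p = 0.135, 0.0902 and 0.115). With the factor as a covariate they were -0.09, -0.03 and 0.41 (adjusted p = 0.134, 0.921 and 0.0399), so the sign of Smad7 turned. The Smad7 call was also lost without any one of 9 of the 12 libraries (TGFb-alone replicates 1, 4, 5 or 6, Pirf replicates 1, 2, 4, 5 or 6, adjusted p from 0.0513 to 0.101), with no filter on low counts (0.0657) and with limma on the deposited log2 CPM (0.077). The Smad3 call was lost without TGFb-alone replicate 1 (adjusted p = 0.0521). The log2 ratio of Smad7 to Smad3, at 0.37 ± 0.09 with Pirf and 0.40 ± 0.22 with TGFb alone, differed by less than the spread between libraries.

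Against untreated slices at 72, Smad3 with TGFb and Pirf was 1.76-fold lower (log2 fold change -0.82 with SE 0.15 and adjusted p = 4.92e-05) and Smad2 was lower by 1.18-fold (log2 fold change -0.24 with SE 0.04 and adjusted p = 2.81e-05). In both, all 6 Pirf libraries lay below all 6 untreated ones, and both were called under all 8 other settings and without any one library. Without scaling factors the Smad2 change was -0.16 (adjusted p = 0.000725). Of all genes, 52% were called in this comparison (26% higher and 26% lower) and 33.9% had groups that did not overlap. Tgfb1 and Smad7 had log2 fold changes of 0.12 (interval -0.08 to 0.33) and -0.10 (interval -0.52 to 0.33) and did not pass (adjusted p = 0.322 and 0.726). With the TMM factor as a covariate the Smad7 difference turned to 0.45 and was called (adjusted p = 0.00607).

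Nint with TGFb was compared with TGFb alone. No member was called by edgeR's quasi-likelihood test, where 3.09% of all genes were (0.882% higher and 2.21% lower). Groups did not overlap in 3.11% of all genes and in 0 of the 4. Log2 fold changes were -0.03 for Tgfb1 (interval -0.24 to 0.18), -0.05 for Smad2 (-0.14 to 0.04), -0.0019 for Smad3 (-0.32 to 0.31) and 0.27 for Smad7 (-0.15 to 0.69), with adjusted p-values of 0.697 to 0.999. Of the 4, 0 had an unadjusted p under 0.05. DESeq2, limma, the 6 other settings and the fits without 1 library called 0 of them. Smad7 had its highest group mean with Nint, and its libraries there ran from 1951 to 2807 with a median of 2553. The lowest of them lay above TGFb-alone replicates 2 and 3 and below the other 4.

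Set against untreated slices at 72, Smad7 with TGFb and Nint was higher by a log2 fold change of 0.68 (with SE 0.21 and adjusted p = 0.014), a level 1.61-fold higher. Of the 6 Nint libraries 4 lay above the highest untreated library at 2203, and it was called under all 8 other settings and without any one library. With the TMM factor as a covariate the log2 fold change was 0.37 (adjusted p = 0.0225). Whether this differed from the response to TGFb alone is the Nint comparison above, which did not pass. Tgfb1 was higher by 0.27 (SE 0.10 and adjusted p = 0.0489), with 812 to 1001.2 against 698 to 855. That call was lost under 3 of 8 other settings and without any one of 10 of the 12 libraries, all but untreated replicate 4 and Nint replicate 3 (adjusted p from 0.0514 to 0.184). Neither Smad2 (log2 fold change -0.07, adjusted p = 0.275) nor Smad3 (-0.38, adjusted p = 0.0689) passed, so that 2 members were called, both higher. Smad3 was called, as lower, under 3 of 8 other settings (lowest adjusted p = 0.00425) and without untreated replicate 6. Smad2 was called, as lower, under 2 of 8 (lowest adjusted p = 0.00844). Of all genes 26.4% were called (12.6% higher and 13.9% lower) and 16.1% had groups that did not overlap. The Smad7 to Smad2 ratio with Nint, 0.55 to 1.05 on the log2 scale, lay above all untreated libraries, the highest of which was 0.51, and 15.5% of tested genes had ratios to Smad2 that separated these groups.

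Sora with TGFb was compared with TGFb alone. Tgfb1 fell, with 943 ± 183 normalized counts for TGFb alone and 722 ± 94.7 for Sora (log2 fold change -0.38 with SE 0.10 and adjusted p = 0.0106), with 594 to 837 against 746 to 1134. Of the Sora libraries 3 lay below all those with TGFb alone. TGFb-alone replicates 1, 5 and 6, at 746, 788 and 799, lay within the Sora range, and replicates 2, 3 and 4 above it. The call held without any one library, a check that leaves most of such a set of 3 in place. It was lost without scaling factors (adjusted p = 0.0638) and in a fit of the 12 libraries alone (0.0847). Smad7 ran from 1070.2 to 2381 with Sora. Its replicates 5 and 6, at 2381 and 2186, lay among the high TGFb-alone libraries and the other 4, at 1070.2 to 1314, near or below the low ones (log2 fold change -0.39, interval -0.81 to 0.04, adjusted p = 0.213). Smad3 had the same 2 libraries on top, at 1630 and 2086 against 1035 to 1401 in the other 4 (log2 fold change -0.09, interval -0.41 to 0.22, adjusted p = 0.717). Smad2 had a log2 fold change of -0.07 (interval -0.16 to 0.02, adjusted p = 0.3). Of 4 members 1 was called, as lower, where 15.4% of all genes were (7.01% higher and 8.37% lower). Groups did not overlap in 4.65% of all genes and in 0 of the 4.

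Against untreated slices at 72, Smad3 was lower with TGFb and Sora by a log2 fold change of -0.47 (with SE 0.15 and adjusted p = 0.0245), with 4 of 6 Sora libraries below all untreated ones. That call was lost in a fit of the 12 libraries alone (adjusted p = 0.0804) and without any one of 6 libraries, untreated replicates 1, 4 or 5 or Sora replicates 1, 3 or 4 (adjusted p from 0.0504 to 0.0739). Tgfb1, Smad2 and Smad7 had log2 fold changes of -0.09, -0.09 and 0.03 and did not pass (adjusted p = 0.574, 0.13 and 0.94), where 25% of all genes were called (13.1% higher and 11.9% lower) and 9.13% had groups that did not overlap.

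The drug groups were also set against each other, at doses not given in the sources used here. With Nint, Smad2, Smad3 and Smad7 were higher than with Pirf, by log2 fold changes of 0.18 (SE 0.04 and adjusted p = 0.00124), 0.44 (SE 0.15 and adjusted p = 0.0161) and 0.78 (SE 0.21 and adjusted p = 0.00217). In all 3, every Nint library lay above every Pirf library, while 54.6% of all genes were called (26.5% higher and 28.2% lower) and 39.7% had groups that did not overlap. The Smad2 and Smad3 calls were lost without scaling factors, at 0.03 and 0.29 (adjusted p = 0.565 and 0.0765). With the TMM factor as a covariate all 3 were lost, at 0.05, 0.05 and -0.08 (adjusted p = 0.432, 0.837 and 0.716), where the sign of Smad7 turned. The factors of Nint (0.935 to 0.999) and Pirf libraries did not overlap, so here too factor and drug cannot be told apart. The Smad7 to Smad2 ratio within a library was 1.51-fold higher with Nint than with Pirf, with no overlap between the groups, where 40.6% of tested genes had ratios to Smad2 that did not overlap (10.6% higher with Nint).

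Sora against Pirf gave 1 call among the members, where 42.1% of all genes were called (21.8% higher and 20.3% lower) and 23.4% had groups that did not overlap. Smad2 was higher with Sora by a log2 fold change of 0.15 (with SE 0.04 and adjusted p = 0.00594), with 5 of 6 Sora libraries above all Pirf libraries, and it was called under all 8 other settings and without any one library. Without scaling factors the difference was 0.10 (adjusted p = 0.0289). Tgfb1, Smad3 and Smad7 had log2 fold changes of -0.21 (interval -0.42 to -0.0021), 0.35 (0.03 to 0.66) and 0.12 (-0.30 to 0.55) and did not pass (adjusted p = 0.0966, 0.0676 and 0.661). Sora against Nint gave 2 calls, where 11% of all genes were called (6.43% higher and 4.56% lower) and 4.68% had groups that did not overlap. Tgfb1 was lower with Sora by -0.36 (SE 0.10 and adjusted p = 0.0237), with 5 of 6 Sora libraries below all Nint libraries, and Smad7 by -0.66 (SE 0.21 and adjusted p = 0.0397), with 4 of 6 below. The Tgfb1 call was lost under 3 of 8 other settings and without Nint replicate 4 or Sora replicate 1 or 2 (adjusted p from 0.0516 to 0.0932). The Smad7 call was lost under 3 of 8 and without any one of 8 libraries, Nint replicates 1, 3, 4 or 5 or Sora replicates 1, 2, 3 or 4 (adjusted p from 0.0528 to 0.621). Smad2 and Smad3 differed by -0.02 (interval -0.11 to 0.07) and -0.09 (-0.41 to 0.22) between Sora and Nint and did not pass.

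Ordered by group mean, Tgfb1 ran from untreated slices at 0 (688 ± 83.2) through Sora (722 ± 94.7), untreated slices at 72 (767 ± 57.3), Pirf (836 ± 94.9) and Nint (925 ± 63.5) to TGFb alone (943 ± 183). Smad2 ran from Pirf (1227 ± 52.6) through untreated slices at 0 (1276 ± 29.1), Sora (1364 ± 73.9), Nint (1385 ± 45.9) and TGFb alone (1431 ± 98.3) to untreated slices at 72 (1452 ± 91.6). Smad3 ran from Pirf (1101 ± 70.6) through Sora (1403 ± 404), Nint (1495 ± 130.6), TGFb alone (1497 ± 303) and untreated slices at 72 (1939.96 ± 350.2, SD, n = 6) to untreated slices at 0 (3443 ± 793). Smad7 ran from untreated slices at 0 (1329 ± 239.6) through Pirf (1429 ± 172), untreated slices at 72 (1528 ± 492), Sora (1558 ± 572) and TGFb alone (2036 ± 624.5) to Nint (2455 ± 384). Neighbours in each order had overlapping ranges, except Smad3 in untreated slices at 72 and at 0. Both carriers had their lowest mean with Pirf, whereas Smad2 had its highest mean in untreated slices at 72 and Smad3 in those at 0. For Smad2 the lowest rank depended on the scaling. Without factors its log2 fold change was 0.26 for untreated slices at 72 against 0 and -0.16 for Pirf against untreated slices at 72. With the TMM factor as a covariate these were 0.24 and -0.17, so time 0 was lowest in both settings. Pirf was not tested against time 0.

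The members differed widely in how steady they were between libraries of one group. The pooled within-group SD on the log2 scale was 0.07 for Smad2, 0.18 for Tgfb1, 0.28 for Smad3 and 0.38 for Smad7, where the median of all genes tested was 0.20. Only 3.18% of genes had a smaller within-group SD than Smad2, and 75.1% had a smaller one than Smad7. Among the 1000 genes nearest in level the shares were 7.9% for Smad2 and 95.3% for Smad7. This spread sets what could be resolved, with a standard error of 0.04 for each Smad2 difference and 0.21 for each Smad7 difference.

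Within groups, Smad3 and Smad7 were high in the same libraries. After the group mean had been subtracted from each library, their log2 CPM had a Pearson r of 0.84 and a Spearman rho of 0.85 over 36 libraries (r = 0.84 without the 2 libraries farthest in Smad3), and both deviated to the same side in 31 of 36. Within single groups of 6, r ran from 0.46 with Nint to 0.95 with TGFb alone. Among all tested genes, 0.428% followed Smad3 more closely than Smad7 did, and 2.63% followed Smad7 more closely than Smad3 did. Other pairs with Smad3 or Smad7 varied in sign between groups. Smad2 had an r of 0.58 to Smad3 over all 36 libraries (-0.36 to 0.94 in single groups, positive in 5 of 6) and of 0.66 to Smad7 (-0.21 to 0.99, positive in 4 of 6). Tgfb1 had an r of -0.49 to Smad3 (-0.84 to 0.12, positive in 2 of 6) and of -0.35 to Smad7 (-0.69 to 0.10, positive in 1 of 6). With TGFb alone, the 3 libraries with the highest Tgfb1 (replicates 2, 3 and 4) included the 2 with the lowest Smad3 and Smad7, whereas replicate 4 was high in Tgfb1 and in Smad7. These values are descriptions, since the genes share each library's RNA and scaling. Division by the same factor can raise r between 2 genes, most for a gene as steady as Smad2. The r values without the factor were not computed.

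Variation within groups moved with the TMM factor of the library to differing degrees, most in Smad7. The part shared by Smad3 and Smad7 was not tested on its own. The within-group deviation of Smad7 had an r of -0.84 with that of the factor, and 1.05% of tested genes had a larger absolute r. It was -0.66 for Smad2, -0.54 for Smad3 and 0.13 for Tgfb1, where 12.8%, 24.7% and 78.7% of tested genes had a larger absolute r. Log2 CPM is itself divided by the factor, so a negative part of each r is built in. That part weighs most on a gene as steady as Smad2 (within-group SD 0.07), and its size was not tested. With log2 of the total count, r was 0.04 for Smad7, -0.02 for Smad3, -0.10 for Smad2 and 0.34 for Tgfb1. The ratio of Smad7 to Smad3, into which no factor enters, also had an r of -0.80 with the factor. Its within-group spread was thus not free of variation that moved with the factor. What makes the factor vary between libraries, and its part in the Smad7 differences between groups, was not tested.

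**Figure D4:**
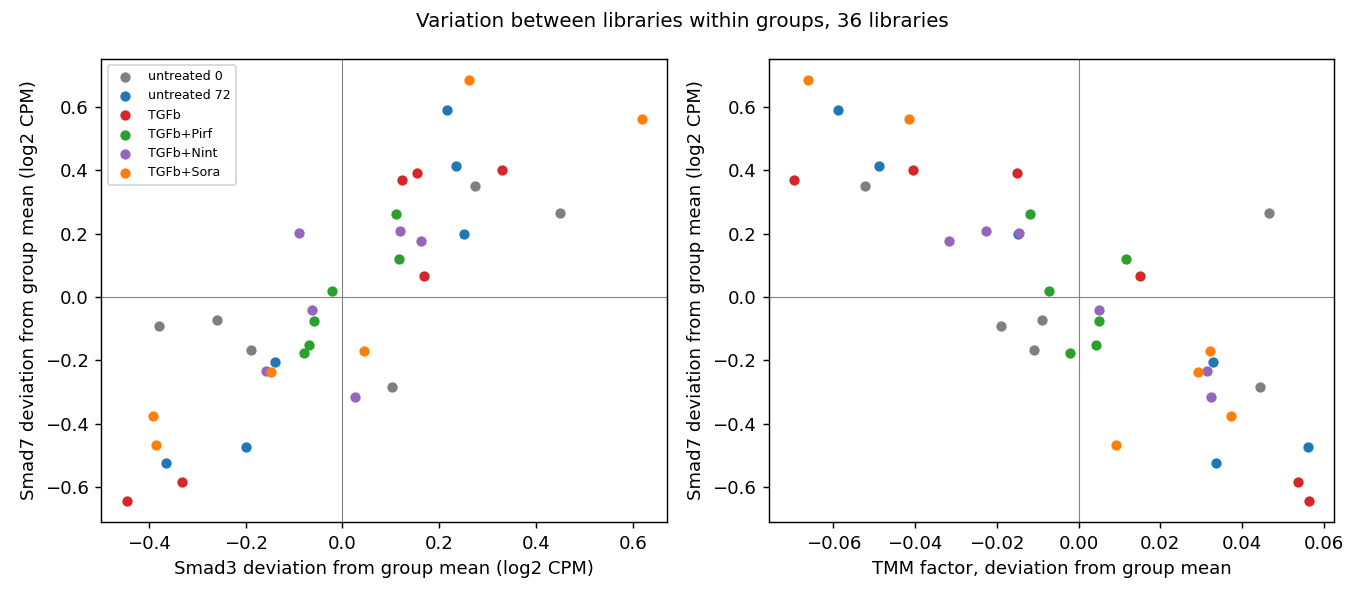
Deviation of Smad7 from its group mean (vertical axes, log2 CPM) against that of Smad3 (left) and against that of the library's TMM factor (right), for 36 libraries coloured by group. Smad7 rises with Smad3 (r = 0.84) and falls as the factor rises (r = -0.84).

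Across all 36 libraries, group differences included, the gene whose log2 CPM was most like that of Smad3 was ENSRNOG00000010161 (Pearson r = 0.95, Spearman rho = 0.92), and for Smad7 it was ENSRNOG00000007434 (r = 0.92, rho = 0.86). For Smad2 it was ENSRNOG00000049075 (r = 0.89, rho = 0.88) and for Tgfb1 ENSRNOG00000056118 (r = 0.72, rho = 0.76). The files do not pair these identifiers with names, and no member was the closest match of another.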

How the data were processed

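Total RNA was sequenced as stranded, Ribo-Zero depleted libraries, per the labels' protocols. The submitters' processing notes name RSEM, edgeR and the build Rnor_6.0, and no source used here gives the aligner, annotation or strand setting. The authors deposited expected counts per gene, of which 8.59% are not whole numbers, and a table of log2 CPM for 14984 genes described as expressed and protein coding, which holds all 4 members. Every column matched 1 sample by its description.

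Expected counts were rounded and tested in R 4.3.3 with edgeR 4.0.16 (filterByExpr, TMM, a single quasi-likelihood fit, each group having its own mean). SE is the absolute log2 fold change over the square root of F. Log2 CPM used a prior count of 2, and ratios had 0.5 added to each count. RSEM can share reads among near-identical copies, and RefSeq lists 2 Smad2 pseudogenes. Counts of the 4 members were whole to within 0.01 in every library.

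Alternatives were other scaling, no filter, 12 libraries only, the replicate number as a block, DESeq2 1.42.0, limma 3.58.1 on the deposited log2 CPM, each library left out, and, added after the data were seen, the TMM factor as a covariate. The members and lists were chosen with earlier results of these data known. Named genes are the 4 members and, for each, the genes most correlated in log2 CPM, of which 1 each is given. The reference gene table pairs 0 genes with an Ensembl ID, so the lists of other pathway genes and the lung cell markers were not run, and the tissue was not checked against markers. RefSeq promoters were matched by symbol for all 4 members (5 entries).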

Additional observations from a re-analysis of the deposited data

Results flagged for a closer look

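In 48 groups of 6 values (the 4 genes and 4 ratios in 6 groups), 2 had one library far from the others by Dixon's test, which marks about 1 group in 20 by chance. The log2 ratio of Smad7 to Smad3 with Sora was 0.547 in replicate 5, against -0.09 to 0.14 in the other 5 libraries. The log2 ratio of Tgfb1 to Smad3 with Pirf was -0.857 in replicate 3, against -0.45 to -0.22 in the other 5. No single gene had such a library in any group.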

How the results depend on the processing

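Of the 18 calls among the members, 6 were still calls under 8 other settings and without any one library: Smad2 and Smad3 in untreated slices at 72 against 0 and in Pirf against untreated slices, Smad7 in Nint against untreated slices, and Smad2 in Sora against Pirf. The share of all genes' calls that would hold in the same way was not computed. Within-library ratios moved by less than 1 SD with unrounded counts and without any one library. Neither check could have failed. Leaving out 1 of 6 values cannot move a group mean that far, and the members' counts were nearly whole before rounding. The values that follow are log2 fold changes, and causes were not tested. With relative log expression factors, calls were lost for Tgfb1 at 0.27 (Nint against untreated). Signs turned there for Smad3 at 0.0081 (Nint against TGFb alone). Without scaling factors, calls were lost for Tgfb1 at 0.23 (TGFb against untreated), Smad2 at -0.066, Smad3 at -0.28 and Smad7 at -0.34 (Pirf against TGFb alone), Tgfb1 at -0.29 (Sora against TGFb alone) and Tgfb1 at 0.21 (Nint against untreated). There calls were lost for Smad2 at 0.026 and Smad3 at 0.29 (Nint against Pirf) and Tgfb1 at -0.26 (Sora against Nint). There calls were gained for Smad3 at -0.44 (TGFb against untreated) and Smad2 at -0.13 and Smad3 at -0.43 (Nint against untreated). It turned the sign of Smad3 at 0.0105 (Nint against TGFb alone), Smad2 at 0.036 and Smad3 at 0.0073 (Sora against TGFb alone), Smad7 at 0.0044 (Pirf against untreated) and Tgfb1 at -0.0021 (Nint against Pirf). Reversed in sign was Smad2 at 0.075 (Sora against Nint). With no filter, calls were lost for Tgfb1 at 0.29 (TGFb against untreated), Smad7 at -0.48 (Pirf against TGFb alone), Tgfb1 at 0.29 (Nint against untreated) and Tgfb1 at -0.35 and Smad7 at -0.65 (Sora against Nint). The direction changed for Tgfb1 at 0.0028 and Smad3 at 0.032 (Nint against TGFb alone). With the TMM factor as a covariate, calls were lost for Smad2 at -0.089 and Smad3 at -0.0296 (Pirf against TGFb alone), Smad2 at 0.047 and Smad3 at 0.052 (Nint against Pirf) and Tgfb1 at -0.39 and Smad7 at -0.16 (Sora against Nint). There calls were gained for Smad7 at 0.52 (untreated against untreated 0), Smad3 at -0.55 (TGFb against untreated) and Smad2 at -0.12 and Smad3 at -0.53 (Nint against untreated). Signs then changed for Smad7 at 0.41 (Pirf against TGFb alone), Smad3 at 0.022 (Nint against TGFb alone), Smad2 at 0.019, Smad3 at 0.16 and Smad7 at 0.18 (Sora against TGFb alone) and Smad7 at 0.45 (Pirf against untreated). Signs turned there for Smad7 at -0.078 (Nint against Pirf), Smad7 at -0.23 (Sora against Pirf) and Smad2 at 0.0603 and Smad3 at 0.14 (Sora against Nint). In fits of 12 libraries, calls were lost for Tgfb1 at 0.30 (TGFb against untreated), Tgfb1 at -0.38 (Sora against TGFb alone), Smad3 at -0.47 (Sora against untreated) and Smad7 at -0.66 (Sora against Nint). There calls were gained for Smad3 at -0.36 (Nint against untreated). It turned the sign of Smad3 at 0.014 (Nint against TGFb alone). With DESeq2, calls were gained for Smad3 at -0.38 (TGFb against untreated). Reversed in sign was Smad3 at 0.0078 (Nint against TGFb alone). With limma, calls were lost for Tgfb1 at 0.27 (TGFb against untreated) and Smad7 at -0.44 (Pirf against TGFb alone). The direction changed for Tgfb1 at 0.0104 and Smad3 at 0.037 (Nint against TGFb alone).

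When each library was left out, ranges were as follows. Tgfb1 then ranged over 0.22 to 0.36 (TGFb against untreated), 0.25 to 0.31 (Nint against untreated), -0.086 to 0.047 (Nint against TGFb alone) and -0.27 to -0.16 (Sora against Pirf). Tgfb1 then ranged over -0.40 to -0.32 (Sora against Nint). Smad3 then ranged over -0.62 to -0.39 (Sora against untreated), -0.44 to -0.31 (TGFb against untreated), -0.44 to -0.32 (Nint against untreated) and -0.51 to -0.37 (Pirf against TGFb alone). Smad3 then ranged over -0.065 to 0.068 (Nint against TGFb alone) and 0.20 to 0.42 (Sora against Pirf). Smad7 then ranged over -0.13 to 0.16 (Sora against untreated), -0.19 to 0.038 (Pirf against untreated), -0.61 to -0.43 (Pirf against TGFb alone) and -0.82 to -0.57 (Sora against Nint). Smad7 then ranged over -0.037 to 0.21 (Sora against Pirf). Smad2 then ranged over -0.12 to -0.064 (Sora against untreated), -0.054 to 0.0025 (TGFb against untreated) and -0.0400 to 0.0038 (Sora against Nint). Of the 44 turned signs, 41 belonged to differences not called in either fit. The number of all genes called between Sora and Nint was 1720, became 1133 with no filter and 451 with the TMM factor as a covariate, and ranged from 942 to 2819 with 1 library left out (highest without Sora replicate 5). Between Nint and TGFb alone it was 483, became 779 with the covariate, and fell to 309 and 299 without TGFb-alone replicates 2 and 3. Between Sora and TGFb alone it was 2406, and became 1470 with the covariate and 1423 in the fit of 12 libraries.

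Replicate numbers are shared by the groups, but nothing says that they pair libraries. Of 90 same-numbered pairs, 22 had deviations from group means correlated above 0.1, and 8 of 36 libraries correlated best with their own number. The median r was -0.0043 for same-numbered pairs and -0.0032 for pairs of different numbers. The share of the latter above 0.1 was not computed. With the replicate block no member's call changed, Smad3 in Nint against TGFb alone turned from -0.0019 to 0.0061, and the number of genes called for TGFb against untreated slices went from 4130 to 4243.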
